A study of Caenorhabditis elegans with 5 samples.

Results

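Astacin metalloproteases and the genes of the molting machinery were followed in wild-type *C. elegans* exposed to tamoxifen. The set was chosen by gene symbol and comprised every listed gene named *nas*, *mlt*, *noah*, *zmp* or *adt*, together with *fbn-1*, *let-653*, *bli-3*, *bli-4*, *bli-5*, *sym-1*, *lpr-1*, *lpr-3* and *pan-1*, with collagens left out. This gave 60 of the 25393 genes in the deposited table, of which 32 were *nas* genes. RNA of whole N2 animals was profiled by Cel-seq2, a method that reads mRNAs from their 3′ ends and counts tags. In 3 libraries the animals had been grown on agar plates with 400 µM tamoxifen and in 2 libraries on plates with 400 µM citrate, the counter-ion of the tamoxifen salt. All animals were wild type without any transgene, were hatched into arrest at the first larval stage to synchronize them, were fed *E. coli* HT115, and were pooled for extraction. Both groups are labelled as L4, the last larval stage, and as 48 h. The study states that tamoxifen delayed development and that those animals were taken later than the controls. Collection time and treatment therefore cannot be told apart in these libraries.

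*C. elegans* builds a new cuticle and sheds the old one at the end of each larval stage. Before each molt the epidermis lays down a transient precuticle of zona pellucida proteins, lipocalins and leucine-rich repeat proteins, and then secretes and cross-links collagens. Release of the old cuticle requires secreted proteases. Among these are astacins, which are zinc metalloproteases of the family that includes the tolloid proteases, and their activity is balanced by protease inhibitors. Expression of molting genes is known to rise and fall once per larval stage, so that their level in a sample depends on when in the cycle the animals were taken.

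Depth ran from 1782371 to 38276144 tags per library, so that 1 tag was worth 0.561 CPM (tags scaled to a library sum of 1000000) in tamoxifen replicate 3 and 0.0261 CPM in tamoxifen replicate 2. A gene was tested, by limma, where 2 or more libraries reached 5 CPM, and the values were compared on the scale log2(CPM + 1). It was called at a Benjamini-Hochberg adjusted p under 0.01 with more than a 2-fold change. Over all 8325 genes tested the middle log2 fold change was 0.24, and median-of-ratios scaling moved it to -0.01. Each of germline, epidermis, intestine and muscle had markers that were detected, and for some markers of each tissue the groups did not overlap, whether called or not. Markers of the germline and oocytes moved with the groups, since 7 of 12 were called higher and 0 lower in tamoxifen, with summed levels of 8414 to 9201 CPM in tamoxifen and of 3180 and 5309 CPM in citrate replicates 1 and 2. Yolk protein genes did so too, with 4 of 6 called higher. Over all genes tested, 4.66% were called higher and 2.76% lower. Of the 7 intestine markers tested, 1 was called lower, the actin gene *act-5* (log2 fold change -1.62, limma adjusted p = 0.0029), and 0 higher. Fold changes in that list were above 0 for 3 genes and below 0 for 4. Of the muscle and sperm markers, 0 of 7 and 0 of 3 tested were called. All 3 tamoxifen values nevertheless lay below both citrate values for 4 of the 7 muscle markers tested (*unc-54*, *unc-15*, *unc-89* and *unc-27*). The same held for the 3 sperm markers tested, of 8 listed. Over all genes tested, 20.8% lay below in this way and 39.4% above. Of the epidermis markers, where most molting genes are expressed, 0 of the 3 tested were called and *nhr-73* was at 0 in all 5 libraries. The summed level of this list was 175 to 185 CPM in tamoxifen and 179 and 192 CPM in citrate, but its tested members lay on opposite sides, without overlap between the groups. On the log2 scale the difference was 1.12 for *lin-26* (limma adjusted p = 0.0225), -0.44 for *elt-3* (limma adjusted p = 0.275) and -0.55 for *ajm-1* (limma adjusted p = 0.152). The part of maturation or of tissue composition in the results below was not tested. In whole animals, fewer cells of a type and less RNA per cell cannot be told apart.

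The set was expressed at low levels, as were most listed genes. The level tested was reached by 16 of the 60 genes, or 26.7%, against 32.8% of all listed genes. Of the other 44, 22 stayed under 1 CPM in all 5 libraries, 9 of the 60 never had more than 3 tags in a library, and *nas-15*, *nas-18* and *nas-29* had 0 tags in every library, against 18.6% of listed genes with 0 tags. The median gene of the set had a mean of 0.737 CPM, against 0.531 CPM for all listed genes. Much of the signal came from few genes, as *bli-4*, *pan-1* and *adt-2* together made up 49.8% to 58.8% of the summed level in the tamoxifen libraries and 55.3% and 54.3% in citrate replicates 1 and 2. That summed level was 344, 271 and 364 CPM in tamoxifen and 463 and 308 CPM in citrate, so that the groups overlapped.

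**Figure D1:**
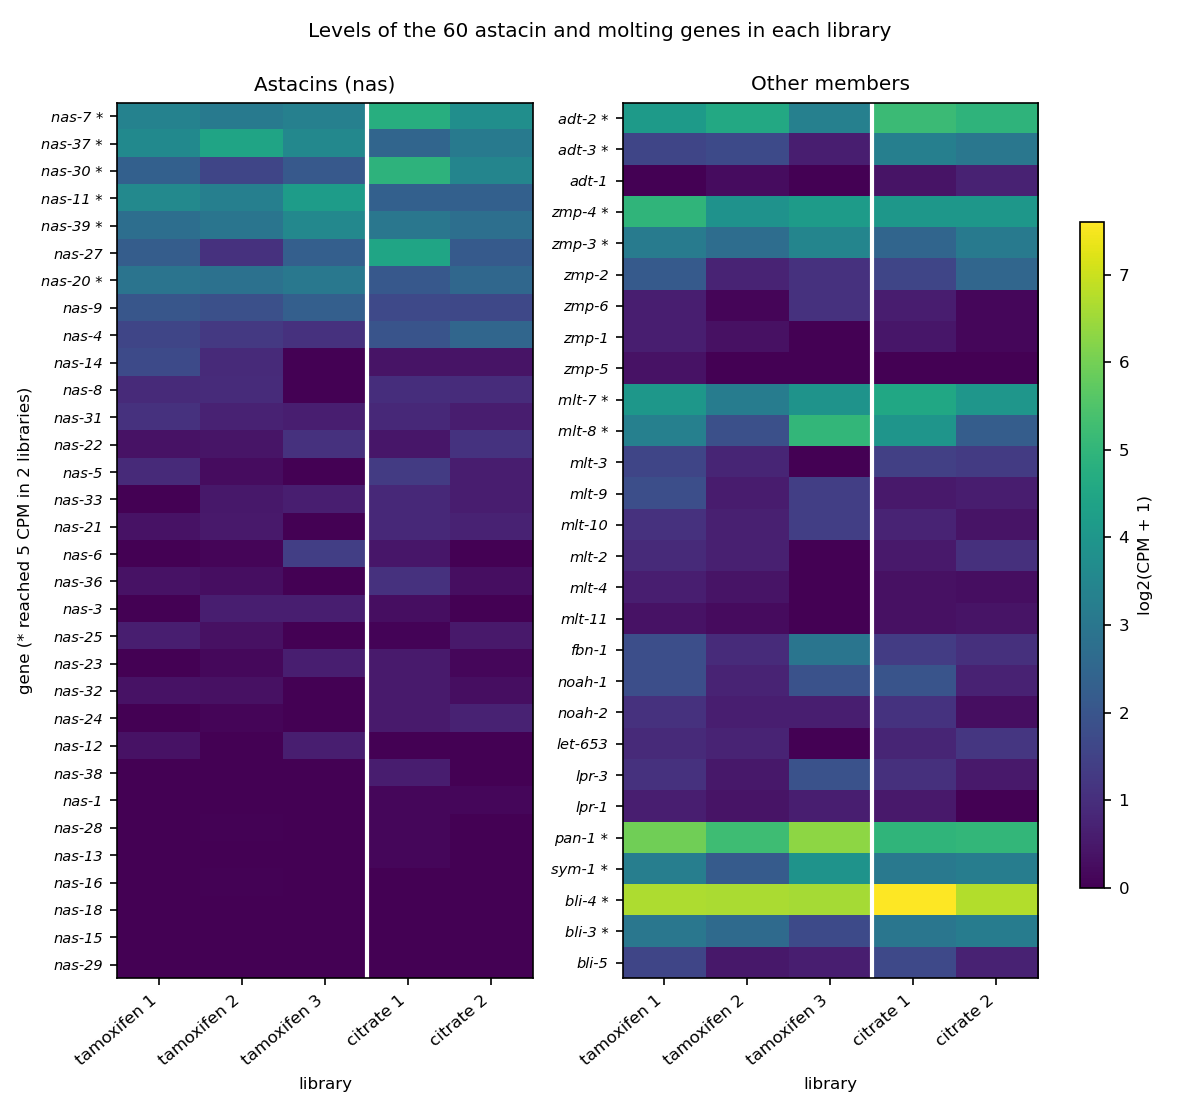
Level of each of the 60 genes as log2(CPM + 1), 1 row per gene and 1 column per library, with the 32 *nas* genes on the left and the 28 other genes on the right, the tamoxifen libraries left of the white line and the citrate libraries right of it; an asterisk marks the 16 genes that were tested. Most rows are dark in all libraries, *bli-4* and *pan-1* are the brightest, and *nas-30* and *nas-27* are brighter in citrate replicate 1 than elsewhere.

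Among the 16 genes tested, limma called 1 lower in tamoxifen, the astacin gene *nas-30*, and 0 higher, while over all genes tested 2.76% were called lower and 4.66% higher. At an unadjusted p under 0.05, 4 genes were lower (*nas-30*, *adt-3*, *adt-2* and *nas-7*) and 3 were higher (*nas-11*, *nas-37* and *pan-1*), against 14.9% and 29.7% of all genes tested. All 3 tamoxifen values lay below both citrate values for 5 of the 16 genes and above them for 4, against 20.8% and 39.4% of all genes. Fold changes were below 0 on the log2 scale for 8 of the 16, against 39.9% of all genes, with a median of 0.07 for the 16 genes and of 0.24 for all genes tested. On the recovered tags, edgeR called 2 lower (*nas-30* and *adt-3*) and 0 higher, against 5.12% and 1.78% of all genes. DESeq2 called 3 lower (*nas-27* in addition) and 0 higher, against 6.24% and 5.09% of the genes it gave an adjusted p, among which were 22 of the 60. The filter itself can favour genes that differ, since *nas-30* and *adt-3* passed it through the citrate libraries alone, and *nas-11* and *nas-20* through the tamoxifen libraries alone, so that counts over the tested genes do not stand for the whole set.

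**Figure D2:**
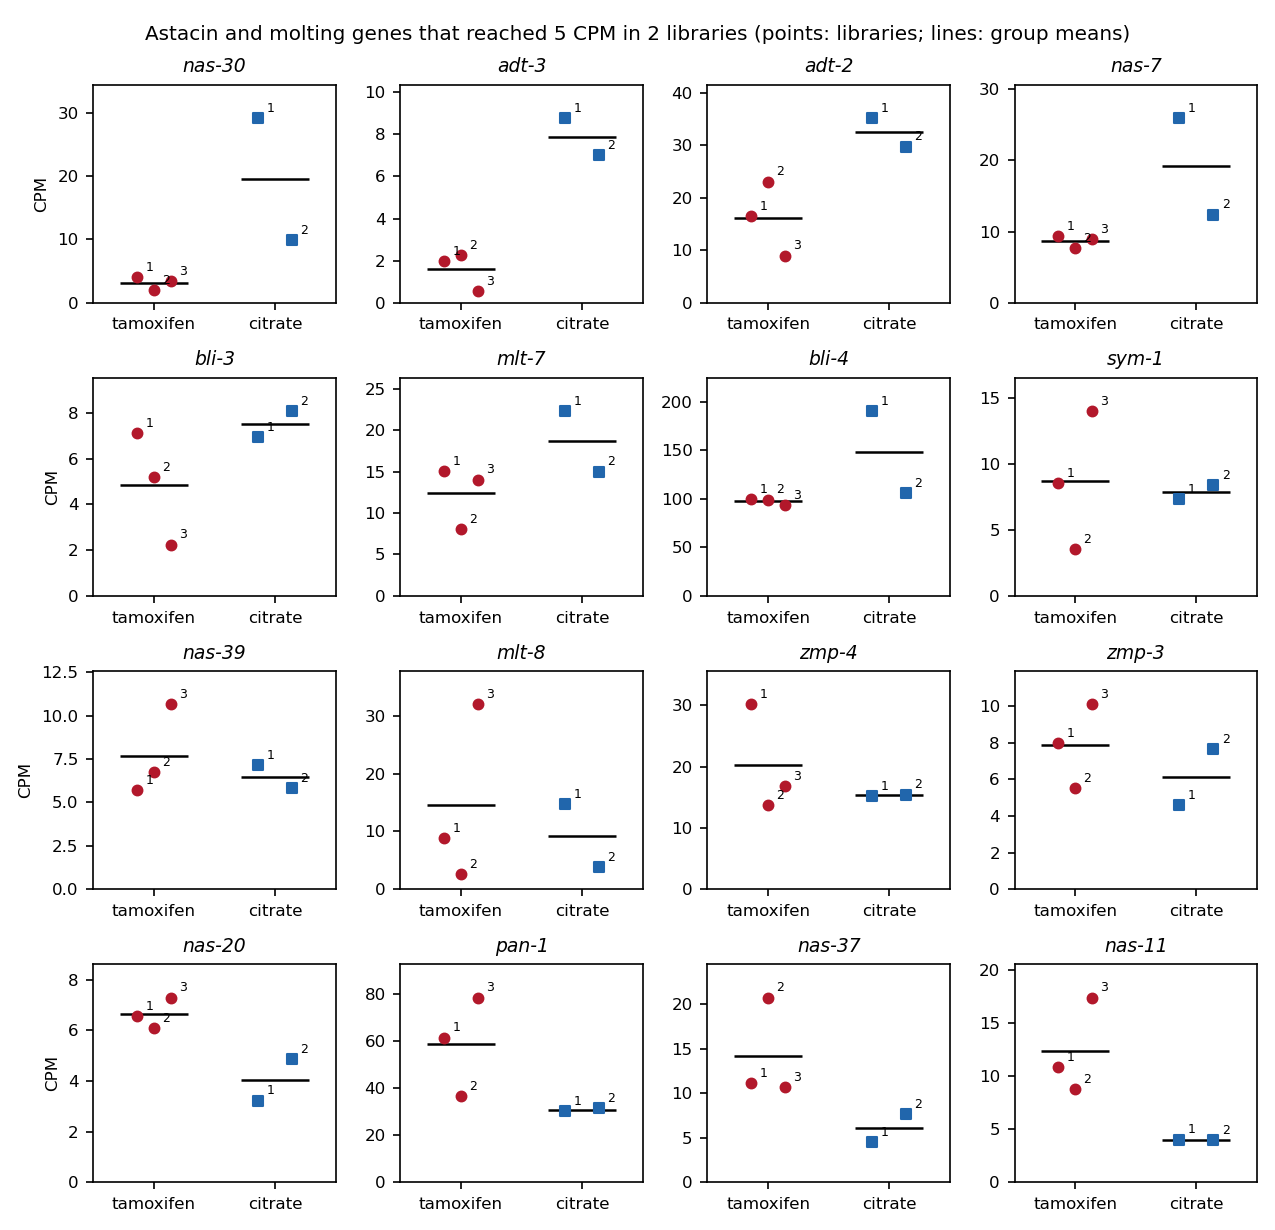
CPM of each of the 16 tested genes in each library, tamoxifen left (circles) and citrate right (squares), numbered by replicate, with lines at the group means and each vertical axis starting at 0. The genes are ordered by log2 fold change, lowest first. The 3 tamoxifen values of *nas-30* lie between 2.04 and 3.99 CPM, below both citrate values, while the citrate values themselves are 29.2 and 9.92 CPM.

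The astacins comprised 32 genes, of which 6 were tested. *nas-30*, which lies on chromosome I from 938483 to 947710 (Ensembl release 115, WBcel235), had 3.99, 2.04 and 3.37 CPM in the tamoxifen libraries and 29.2 and 9.92 CPM in the citrate libraries. Thus all 3 tamoxifen values were low and close together, and the citrate values differed from each other by more than the tamoxifen values did. The means were 3.13 ± 0.995 CPM in tamoxifen (SD, n = 3) and 19.5 ± 13.6 CPM in citrate (SD, n = 2), a 6.25-fold lower level. On the log2(CPM + 1) scale *nas-30* fell by 2.17 with a standard error of 0.46 (limma adjusted p = 0.0069). Set against a single citrate library, the difference was -2.90 for replicate 1 and -1.43 for replicate 2, neither with a test, because with 1 citrate library left out the gene no longer reached 5 CPM in 2 libraries. The call was lost when any 1 tamoxifen library was left out, with limma adjusted p = 0.0187, 0.0112 and 0.0111 without replicates 1, 2 and 3, and log2 fold changes of -2.32, -1.96 and -2.22. Over all alternatives in which *nas-30* was tested, the adjusted p ran from 2.12e-06 to 0.1. The lowest came from limma with the replicate number as a block, although the numbers are not known to pair the libraries. The highest came from limma with no filter. DESeq2 gave an adjusted p of 7.38e-06 and edgeR 0.00262.

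*nas-27* had a similar profile but stayed below the level tested, since only 1 library exceeded 5 CPM. It had 3.70, 1.12 and 3.93 CPM in tamoxifen, against 21.1 and 3.45 CPM in citrate. The gene was thus high in citrate replicate 1 alone, and the groups overlapped. With a filter of 1 CPM, chosen after seeing the data, limma put it at -1.44 on the log2 scale with a standard error of 0.58 (adjusted p = 0.0852), and DESeq2 at -2.44 (adjusted p = 0.00612).

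*nas-36* and *nas-37* encode astacins that are needed to shed the old cuticle. They were found at different levels. For *nas-37* the tamoxifen libraries had 11.1, 20.7 and 10.7 CPM and the citrate libraries 4.55 and 7.65 CPM, so that the groups did not overlap. The means were 14.2 ± 5.68 CPM in tamoxifen (SD, n = 3) and 6.10 ± 2.19 CPM in citrate (SD, n = 2), and the log2 fold change was 1.07 (95% interval 0.24 to 1.90, limma adjusted p = 0.051), not past the threshold. With the replicate number as a block, *nas-37* was called (log2 fold change 1.23, limma adjusted p = 0.00606), although that fit leaves 1 residual degree of freedom and the numbers are not known to pair the libraries. *nas-37* shares 32 exon bases at its 3′ end with *C17G1.5* on the opposite strand, which had 8.82, 8.02 and 8.42 CPM in tamoxifen and 18.2 and 17.6 CPM in citrate. The use of strand in counting is not given in the sources used here, so tags in that stretch could belong to either gene. *nas-36* had 1, 8 and 0 tags in the tamoxifen libraries, or 0.285, 0.209 and 0 CPM, and 21 and 2 tags in the citrate libraries, or 1.11 and 0.216 CPM. Its count of 0 in tamoxifen replicate 3 allows up to 1.68 CPM. Citrate replicate 2 lay among the tamoxifen values, so that the groups overlapped, and *nas-36* did not reach the level tested.

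*nas-38*, which has been linked to the sleep that accompanies molting, had 0 tags in all 3 tamoxifen libraries and 10 and 0 tags in the citrate libraries. The zeros allow up to 0.854, 0.0784 and 1.68 CPM in tamoxifen replicates 1, 2 and 3 and up to 0.323 CPM in citrate replicate 2, against 0.53 CPM in citrate replicate 1. The gene was therefore seen in 1 library alone.

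*nas-11* had the largest increase among the 16 tested genes. It had 10.8, 8.75 and 17.4 CPM in tamoxifen, against 4.02 and 3.99 CPM in citrate. The tamoxifen values were all above the citrate values, which nearly coincided. The log2 fold change was 1.36 (95% interval 0.55 to 2.17, limma adjusted p = 0.0193), which misses the threshold on p, and it was 1.35 against citrate replicate 1 and 1.36 against citrate replicate 2. *nas-11* shares 163 exon bases at its 3′ end with *smf-2* on the opposite strand, but *smf-2* itself had at most 0.285 CPM in any library.

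*nas-6* and *nas-7* have been tied by genetics to the grinder, the cuticular teeth of the pharynx that are rebuilt at each molt. *nas-7* had 9.39, 7.65 and 8.98 CPM in tamoxifen and 26.003 and 12.4 CPM in citrate. All tamoxifen values were below the citrate values, but citrate replicate 2 was closer to the tamoxifen libraries than to citrate replicate 1. The log2 fold change of *nas-7* was -0.98 (95% interval -1.77 to -0.19, limma adjusted p = 0.0565), with -1.49 when set against citrate replicate 1 by itself and -0.47 against the other citrate library. *nas-6* never exceeded 7 tags in a library and was not tested.

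The last 2 astacins tested showed smaller differences. *nas-39*, the tolloid-like gene, had 5.69, 6.74 and 10.7 CPM in tamoxifen and 7.15 and 5.82 CPM in citrate, and the groups overlapped (log2 fold change 0.18, 95% interval -0.64 to 0.999, limma adjusted p = 0.737). It shares 276 exon bases with *F38E9.1* on the same strand, so that its tags may be split between both genes. *nas-20* had 6.55, 6.09 and 7.29 CPM in tamoxifen and 3.23 and 4.85 CPM in citrate, and its fold change was 0.62 on the log2 scale (95% interval -0.20 to 1.43, limma adjusted p = 0.223). Of the 26 astacins not tested, *nas-27*, *nas-9* and *nas-4* had the highest levels. *nas-9* had 3.13, 2.59 and 3.93 CPM in tamoxifen and 2.17 and 2.16 CPM in citrate, and *nas-4* had 1.99, 1.38 and 1.12 CPM in tamoxifen and 2.97 and 4.63 CPM in citrate, without overlap between the groups in either case. However, *nas-4* shares 437 exon bases at its 3′ end with *C05D11.5* on the same strand. That gene had 3.70, 4.10 and 3.93 CPM in tamoxifen and 5.45 and 6.25 CPM in citrate. Tags in the shared stretch could belong to either gene.

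ADAMTS proteases, secreted metalloproteases with thrombospondin repeats, were represented by 3 genes, of which 2 were tested. Both lay below citrate in every tamoxifen library, against 20.8% of all genes tested. However, *adt-3* passed the filter through the citrate libraries alone, so it was tested only because that group was high. *adt-3* had 1.99, 2.27 and 0.561 CPM in tamoxifen, against 8.79 and 7.01 CPM in citrate. The 2 citrate values were close to each other and well above the tamoxifen values, of which the lowest rests on 1 tag. The means were 1.61 ± 0.918 CPM in tamoxifen (SD, n = 3) and 7.90 ± 1.26 CPM in citrate (SD, n = 2), a 4.91-fold lower level. The log2 fold change of *adt-3* was -1.83 (95% interval -2.83 to -0.84, limma adjusted p = 0.0138), just outside the threshold. It was called after median-of-ratios scaling (-2.03, limma adjusted p = 0.00921) and with edgeR (-2.27, adjusted p = 0.00769) and DESeq2 (-2.24, adjusted p = 0.00335), and in all in 7 of the 16 alternatives that tested it, looser thresholds included. It was not called without tamoxifen replicates 1, 2 or 3 (limma adjusted p = 0.0221, 0.0102 and 0.0195), without a trend (0.0139), with a filter of 1 CPM (0.0115), after thinning (0.044), with no filter (0.112), with a pseudocount of 0.1 (0.0256) or with a pseudocount of 5, where the change was under 2-fold (-0.97). The difference was -1.98 against citrate replicate 1 and -1.69 against citrate replicate 2.

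*adt-2*, which shapes body size and cuticle collagen organization, had 16.5, 23.1 and 8.98 CPM in tamoxifen, against 35.3 and 29.7 CPM in citrate. The groups did not overlap, and tamoxifen replicate 3 was the lowest. The log2 fold change of *adt-2* was -1.05 (95% interval -1.85 to -0.25, limma adjusted p = 0.0473), and it was -0.70 without tamoxifen replicate 3 (limma adjusted p = 0.152). *adt-1*, known for its role in the rays of the male tail, had 0, 7 and 0 tags in tamoxifen and 6 and 6 tags in citrate and was not tested.

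Matrix metalloproteases of the *zmp* family showed no call among the 2 genes tested of 6. *zmp-4* had 30.2, 13.7 and 16.8 CPM in tamoxifen and 15.2 and 15.4 CPM in citrate. *zmp-3* had 7.97, 5.51 and 10.1 CPM in tamoxifen and 4.61 and 7.65 CPM in citrate. The groups overlapped for both, with log2 fold changes of 0.30 for *zmp-4* (95% interval -0.47 to 1.07) and 0.31 for *zmp-3* (95% interval -0.53 to 1.15), and thinning all libraries to the smallest depth turned both below 0. *zmp-2*, for which a link to molting has been described, had 3.42, 0.705 and 1.12 CPM in tamoxifen and 2.01 and 4.74 CPM in citrate. *zmp-1*, a gene of the invading anchor cell, stayed at or below 0.569 CPM.

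The *mlt* genes are named for defects in molting. Only *mlt-7* and *mlt-8* of the 8 were tested, and 0 were called. *mlt-7*, a heme peroxidase that cross-links cuticle proteins, had 15.1, 8.10 and 14.03 CPM in tamoxifen and 22.3 and 14.98 CPM in citrate. Its groups overlapped (log2 fold change -0.57, 95% interval -1.34 to 0.20, limma adjusted p = 0.232). *mlt-8* had 8.82, 2.61 and 32.0 CPM in tamoxifen and 14.7 and 3.77 CPM in citrate, and thus varied by more than 3-fold within each group. Its log2 fold change of 0.28 had the widest 95% interval of the tested genes, from -1.23 to 1.80, and with citrate replicate 1 as the single control it was -0.58 and with citrate replicate 2 it was 1.14. The other 6 were low. *mlt-10*, a widely used reporter of the molt, had 1.14, 0.601 and 1.68 CPM in tamoxifen and 0.688 and 0.323 CPM in citrate. *mlt-9* had 2.56, 0.496 and 1.68 CPM in tamoxifen and 0.424 and 0.539 CPM in citrate. *mlt-11*, which encodes a Kunitz-type protease inhibitor, did not exceed 6 tags in any library. *mlt-2*, *mlt-3* and *mlt-4*, ankyrin-repeat partners of the NEKL kinases, had at most 1.99 CPM.

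Genes of the precuticle were near the lower limit as well. None of the zona pellucida genes *noah-1*, *noah-2*, *fbn-1* and *let-653* or of the lipocalin genes *lpr-1* and *lpr-3* reached the level tested. *fbn-1*, a fibrillin-like component, had 2.56, 0.914 and 6.73 CPM in tamoxifen and 1.54 and 1.08 CPM in citrate. *noah-1* had 2.56, 0.705 and 2.81 CPM in tamoxifen and 2.91 and 0.647 CPM in citrate. In both cases the groups overlapped. The remaining 4 genes had between 0 and 2.81 CPM, also with overlap.

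The leucine-rich repeat proteins were better expressed. *pan-1*, a transmembrane protein that acts with the MYRF transcription factors, had 61.5, 36.8 and 78.5 CPM in tamoxifen, against 30.2 and 31.6 CPM in citrate. All tamoxifen values were above both citrate values, although tamoxifen replicate 2 was close to them. The log2 fold change of *pan-1* was 0.85 (95% interval 0.12 to 1.57, limma adjusted p = 0.0702), not past the threshold, and median-of-ratios scaling gave 0.58. *sym-1*, a secreted protein gene, had 8.54, 3.55 and 14.03 CPM in tamoxifen and 7.36 and 8.41 CPM in citrate. The citrate values of *sym-1* lay within the tamoxifen range, and the log2 fold change was -0.03 (95% interval -1.01 to 0.95).

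**Figure D3:**
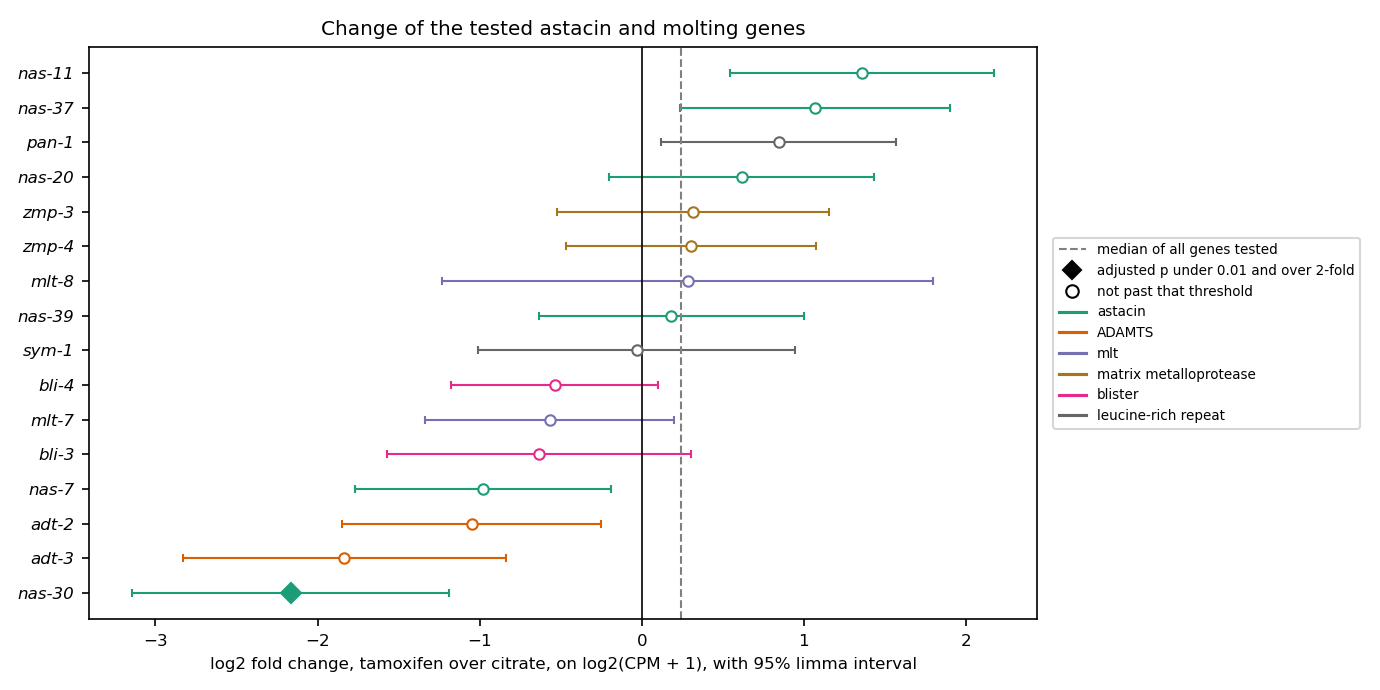
Log2 fold change, tamoxifen over citrate, of each of the 16 tested genes on the log2(CPM + 1) scale with its 95% limma interval; colours mark gene families, a filled diamond marks a gene past the threshold, and the dashed line marks the median of all genes tested, 0.24. *nas-30* at -2.17 is the single diamond, and the intervals of *adt-3*, *adt-2* and *nas-7* lie wholly below 0 and those of *nas-11*, *nas-37* and *pan-1* wholly above it.

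The *bli* genes act on cuticle assembly and give blisters when mutated. *bli-4*, a kexin-like convertase that processes procollagens, was the most abundant gene of the set in CPM, with 99.6, 99.1 and 93.7 CPM in tamoxifen and 190 and 106 CPM in citrate. The tamoxifen mean was 97.5 ± 3.30 CPM (SD, n = 3) and the citrate mean 148 ± 59.9 CPM (SD, n = 2), and citrate replicate 2 lay closer to them than to citrate replicate 1. All tamoxifen values of *bli-4* lay below both citrate values. The log2 fold change of *bli-4* was -0.54 (95% interval -1.18 to 0.10, limma adjusted p = 0.174), and median-of-ratios scaling gave -0.80 (limma adjusted p = 0.063). Set against citrate replicate 1 alone the difference was -0.96, and against citrate replicate 2 alone it was -0.12. *bli-3*, the dual oxidase that makes the peroxide for tyrosine cross-links, had 7.12, 5.20 and 2.24 CPM in tamoxifen and 6.94 and 8.08 CPM in citrate. Its groups overlapped (log2 fold change -0.64, 95% interval -1.57 to 0.30, limma adjusted p = 0.273). *bli-5*, a Kunitz-type inhibitor, had at most 2.22 CPM and was not tested.

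The 2 citrate libraries differed from each other for part of the set. On the log2(CPM + 1) scale, citrate replicate 2 was below citrate replicate 1 for 9 of the 16 tested genes, against 40.3% of all genes tested. The differences were largest for *mlt-8* (-1.72), *nas-30* (-1.47), *nas-7* (-1.01) and *bli-4* (-0.84). They were under 0.1 in size for *nas-11* (-0.01), *zmp-4* (0.02) and *pan-1* (0.06). In these same libraries the summed level of germline and oocyte markers was 5309 CPM in citrate replicate 2 and 3180 CPM in citrate replicate 1, and its part in these differences was not tested.

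**Figure D4:**
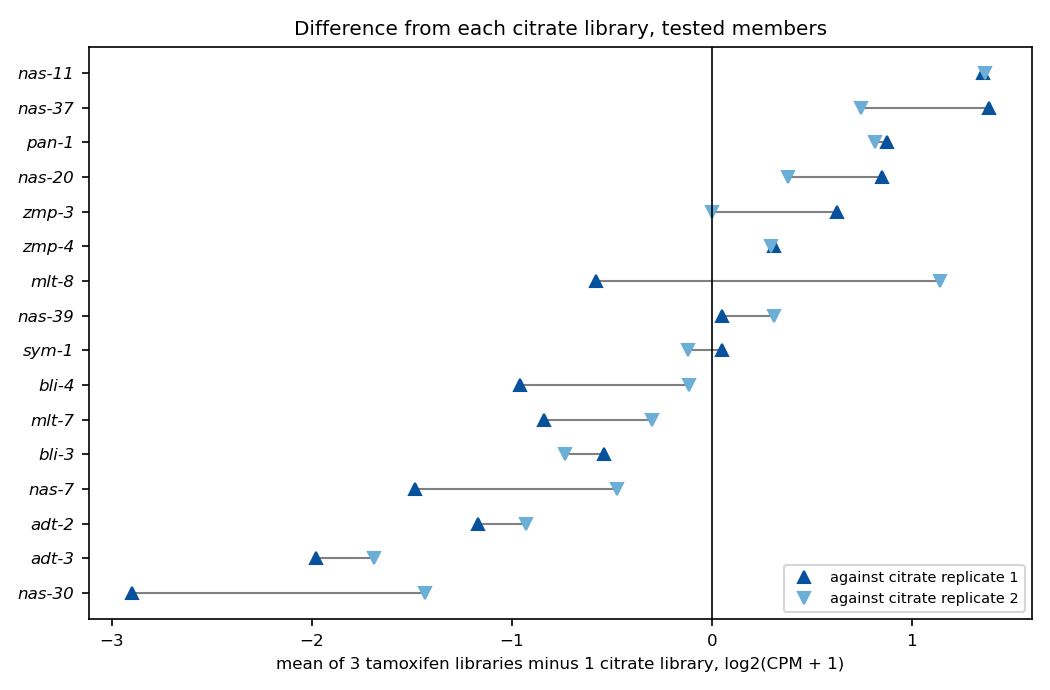
For each of the 16 tested genes, the mean of the 3 tamoxifen libraries minus citrate replicate 1 (upward triangle) and minus citrate replicate 2 (downward triangle), on the log2(CPM + 1) scale. The triangles nearly coincide for *nas-11* at 1.35 and 1.36, lie apart for *nas-30* at -2.90 and -1.43, and fall on opposite sides of 0 for *mlt-8* at -0.58 and 1.14 and for *sym-1* at 0.05 and -0.12.

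Other genes of the pathway were read in the same fit. Over 6 lists of molting regulators, precuticle and cuticlin genes, oxidase partners and peroxidases, other astacins, collagen-modifying enzymes, and protease inhibitors and cathepsins, 27 genes were tested. Of these, 2 were called higher (*dab-1* and *egg-6*) and 0 lower, against 4.66% and 2.76% of all genes tested, so that these counts are near the background. *dab-1* encodes the adaptor of the megalin-like receptor LRP-1, itself required for molting. It had 286, 217 and 342 CPM in tamoxifen, against 37.1 and 87.1 CPM in citrate, and rose by 2.26 on the log2 scale with a standard error of 0.35 (limma adjusted p = 0.0023). The call of *dab-1* was lost without tamoxifen replicate 1 at nearly the same log2 fold change (2.24, limma adjusted p = 0.014). It was also lost without citrate replicate 1, where the log2 fold change was 1.66 (limma adjusted p = 0.0326), while without citrate replicate 2 it was 2.87. *egg-6*, which encodes an extracellular leucine-rich repeat protein of the excretory duct, had 436, 456 and 353 CPM in tamoxifen, against 115 and 222 CPM in citrate, and rose by 1.36 with a standard error of 0.29 (limma adjusted p = 0.0077). The call of *egg-6* was lost without tamoxifen replicates 1, 2 or 3, with log2 fold changes of 1.32, 1.29 and 1.47 (limma adjusted p = 0.0317, 0.0136 and 0.0167). Without citrate replicate 1 the log2 fold change was 0.89, under 2-fold (limma adjusted p = 0.109), and without citrate replicate 2 it was 1.83. Median-of-ratios scaling gave 1.10, also not called (limma adjusted p = 0.0158). Between the citrate libraries, replicate 2 had the higher level of both, by 1.21 for *dab-1* and 0.95 for *egg-6* on the log2 scale, and likewise of all 12 markers of the germline and oocytes, and the part of these cells was not tested.

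Of the 7 molting regulators tested among 12, *dab-1* was the single one called. *nhr-23*, the nuclear receptor that drives the molting cycle, had 68.0, 72.6 and 41.5 CPM in tamoxifen and 36.8 and 45.9 CPM in citrate, with overlap (log2 fold change 0.51, 95% interval -0.17 to 1.197, limma adjusted p = 0.227). *myrf-1*, a transcription factor of the molt and partner of *pan-1*, had 8.26, 5.93 and 6.73 CPM in tamoxifen and 2.75 and 2.69 CPM in citrate. The groups of *myrf-1* did not overlap, and its log2 fold change was 1.09 (limma adjusted p = 0.0472), not past the threshold. *myrf-1* passed the filter through the tamoxifen libraries alone, so it was tested only because that group was high. The receptor gene *lrp-1* had 17.9, 20.7 and 14.6 CPM in tamoxifen and 9.27 and 10.2 CPM in citrate (log2 fold change 0.79, limma adjusted p = 0.0762). *nhr-25*, *nekl-2* and *nekl-3* were not tested, with at most 1.12, 3.37 and 3.13 CPM.

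**Figure D5:**
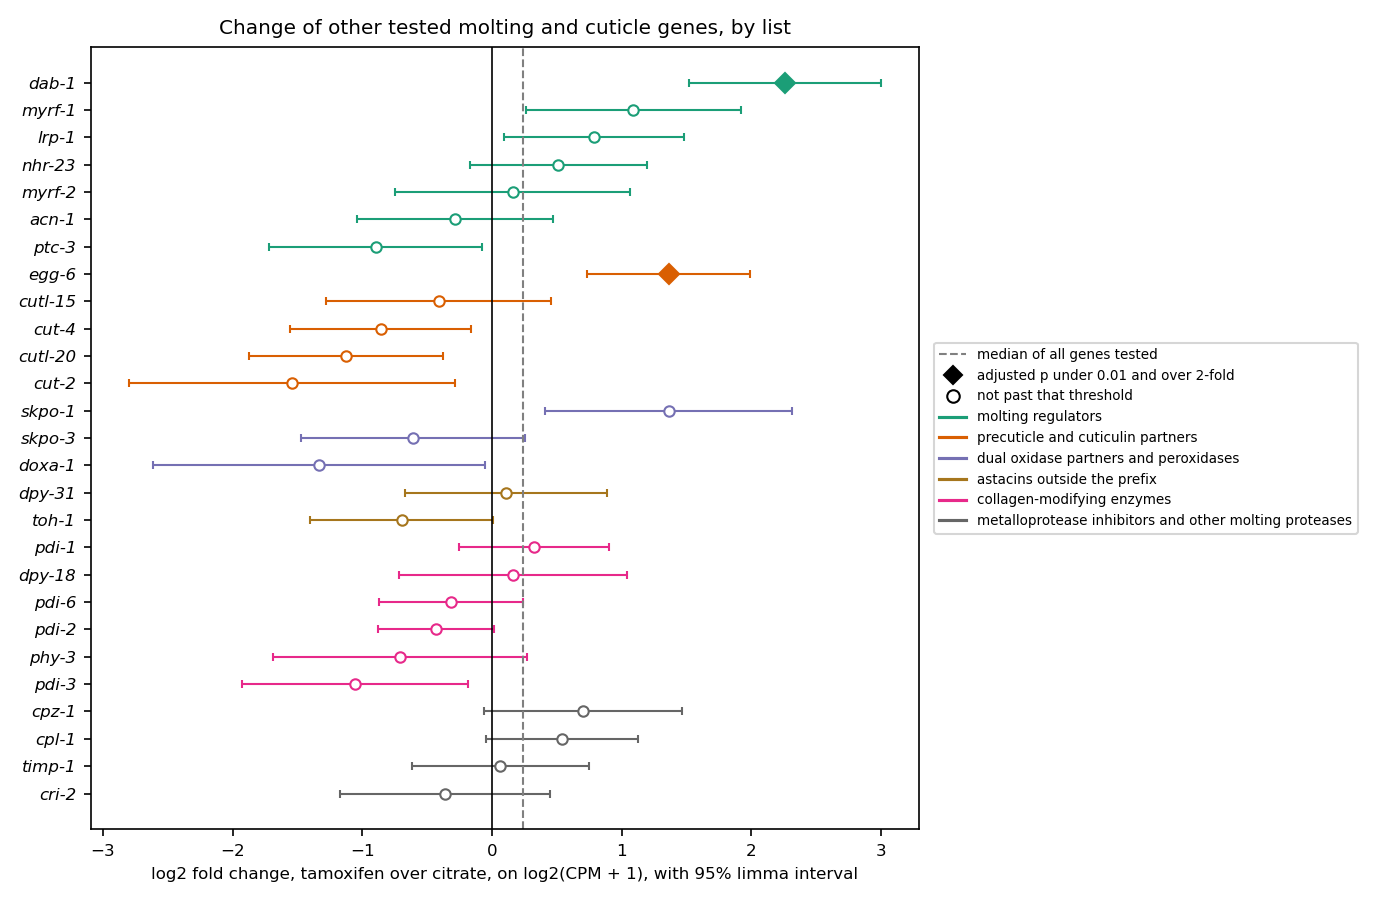
Log2 fold change, tamoxifen over citrate, of the 27 tested genes of the 6 other molting and cuticle lists on the log2(CPM + 1) scale with 95% limma intervals; colours mark the lists, filled diamonds mark genes past the threshold, and the dashed line marks the median of all genes tested, 0.24. The diamonds are *dab-1* at 2.26 and *egg-6* at 1.36, and the lowest value is that of *cut-2* at -1.54.

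Cuticlins, the zona pellucida proteins of the cuticle, lay on the other side of *egg-6* in the same list. Of the 4 tested, 0 were called. *cut-2* had 25.6, 8.15 and 41.5 CPM in tamoxifen and 124 and 31.4 CPM in citrate, so that the groups overlapped and citrate replicate 1 stood apart (log2 fold change -1.54, limma adjusted p = 0.0591). *cutl-20* had 6.55, 5.36 and 8.42 CPM in tamoxifen and 17.4 and 14.2 CPM in citrate, without overlap (log2 fold change -1.12, limma adjusted p = 0.0289). It was called lower with DESeq2, and in all in 4 of the 18 alternatives that tested it, looser thresholds included. *cut-2* was called in 2 of 19, with the replicate block and at an adjusted p under 0.1. The C-proteinase gene *dpy-31*, an astacin outside the *nas* names, had 10.2, 10.3 and 6.17 CPM in tamoxifen and 8.21 and 7.76 CPM in citrate, and its fold change of 0.11 on the log2 scale (limma adjusted p = 0.836) turned to -0.13 after median-of-ratios scaling. Of the 6 collagen-modifying enzymes tested, 0 were called at the threshold. At an unadjusted limma p under 0.05, 1 was below citrate, against 14.9% of all genes tested, so that this count is near the background. That gene was the disulfide isomerase gene *pdi-3* (252, 197 and 72.4 CPM in tamoxifen and 297 and 344 CPM in citrate).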

How the data were processed

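The 5 Cel-seq2 libraries, 3 tamoxifen and 2 citrate, were grouped by their titles. The authors deposited 1 table of values they call TPM, but each library sums to 1000000 with no correction for gene length, so these deposited values were read as CPM. The study used a DolphinNext pipeline, and the submitters' processing notes name Trimmomatic 0.32 and STAR. Genome build, strand use and collapsing of molecular identifiers are not given in the sources used here. All values (100%) were whole multiples of 1 step per library within 0.01, which gave whole tags. Symbols matched 25064 of 25393 IDs, and positions came from Ensembl release 115.

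The limma 3.58.1 test (R 4.3.3, trended variance) used log2(CPM + 1), all 5 libraries and Benjamini-Hochberg adjustment over 8325 genes; this scale understates changes of low genes. An exact permutation test of 3 against 2 libraries cannot give a p below 0.1. The study's DESeq2 (here 1.42.0) and edgeR 4.0.16 (388 and 230 calls in limma, 148 and 426 in edgeR, higher and lower) were run on recovered tags as alternatives, beside other pseudocounts, filters, scalings, a fit with no trend, a replicate block, thinning, and leaving out each library. Limits for a count of 0 take 3 tags and cover counting error only. Genes are named for being called, for a known molting or cuticle role, or for abundance; the other tested genes, *nas-4*, *nas-9*, *nas-27*, *myrf-1*, *lrp-1*, *cut-2*, *cutl-20* and *pdi-3* were added after their values were seen. Members and lists were chosen with earlier results of these data known.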

Additional observations from a re-analysis of the deposited data

How the results depend on the processing

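Against 1 gene called lower and 0 higher among the 16 tested, calls were 0 lower with no filter, without a trend and after thinning. A filter of 20 CPM also gave 0, but it left 3 genes to test and *nas-30* was not among them. They were 2 lower after median-of-ratios scaling, after quantile normalization and with edgeR, and 3 with DESeq2. At an adjusted p of 0.05 they were 3 lower and 1 higher, and at 0.1 they were 3 and 2. With any 1 library left out both counts ranged from 0 to 0, though without either citrate library 14 genes were tested, *nas-30* and *adt-3* not among them. With the replicate block they were 2 lower and 1 higher. Deviations of same-numbered libraries correlated at 0.12 for replicate 1 and 0.32 for replicate 2. For tamoxifen replicate 3 with citrate replicate 1, which share no number, the value was 0.21. Deviations of 2 citrate libraries from their mean mirror each other, so these values cannot show pairing. With 2 pairs the libraries share only a number. A filter of 1 CPM, chosen after seeing the data, tested 29 of the 60 genes and called 1 lower and 0 higher. Other pathway genes called, 2 in the fit reported, numbered 0 with no filter or no trend, 1 after median-of-ratios scaling, after quantile normalization or with edgeR, 3 with DESeq2, 4 with the replicate block, 5 and 8 at an adjusted p of 0.05 and 0.1, and from 0 to 2 with 1 library left out. Over all genes, 388 were higher and 230 lower. These counts were 0 and 0 with no filter, 151 and 405 after median-of-ratios scaling, 221 and 369 after quantile normalization, 31 and 46 without a trend, 1044 and 599 with the block, 148 and 426 with edgeR, 542 and 665 with DESeq2, 1333 and 678 at 0.05 and 1414 and 784 at 0.1. After thinning they were 268 and 151. Leaving out 1 library gave 4 to 561 higher and 1 to 154 lower, the lowest without citrate replicate 1, where the single citrate library is assumed to vary like the others.

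Of 20 genes with a fold change in the fit reported, 14 kept their direction under every alternative that tested them. The exceptions were not past the threshold. With 1 library left out, *dpy-31* ranged from -6.99871e-05 to 0.33, *mlt-8* from -0.58 to 1.14, *nas-39* from -0.051 to 0.35, *sym-1* from -0.43 to 0.43 and *zmp-4* from -0.012 to 0.53. Median-of-ratios scaling put *dpy-31* at -0.13 and *nas-39* at -0.053, edgeR put them at -0.026 and -0.059, and quantile normalization put *dpy-31* at -0.012. The block gave -0.54 for *mlt-8* and -0.051 for *nas-39*. A pseudocount of 5 gave 0.015 for *sym-1*, and thinning gave -0.098 for *zmp-3* and -0.037 for *zmp-4*. Outside these 20 genes, other pathway genes also changed direction. Over the alternatives *acn-1* ranged from -0.63 to 0.0093, *myrf-2* from -0.58 to 0.55 and *dpy-18* from -0.30 to 0.44. Likewise, *timp-1* ranged from -0.21 to 0.32 and *cutl-15* from -0.80 to 0.0033. The cause of these changes was not tested. In tamoxifen replicate 3, 1 tag is worth 0.561 CPM, which limits what can be told for genes near 5 CPM.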
